A study of Homo sapiens with 9 samples.

Results

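The Hippo pathway and its YAP target genes were followed here through 10 genes, taken by name from the 19257 genes of the count and FPKM tables. They are YAP1 and WWTR1, which encode the paired co-activators YAP and TAZ, their DNA-binding partner TEAD1, the inhibitory kinases LATS1 and LATS2, and 5 genes known as YAP targets, AMOTL2, CCN1, CCN2, ANKRD1 and MYOF. The 9 RNA-seq libraries are labelled A549, a lung adenocarcinoma cell line. They comprise 3 libraries labelled OGT-KO and 3 labelled TR11B-KO, from cells given a Lenti-CRISPR-V2 plasmid directed at OGT or at TR11B, and 3 labelled NC, from cells given the empty plasmid, whose genotype label is WT. All 3 groups were therefore given a Cas9 vector. OGT encodes the enzyme that adds the O-GlcNAc sugar to proteins inside the cell. TR11B is the protein entry name of osteoprotegerin, a secreted decoy receptor, and was read as the gene TNFRSF11B. No guide sequence or clone was given in the sources used here, so guide, clone and knockout cannot be told apart.

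Libraries held 38327508 to 42245970 counts. OGT averaged 24.1 ± 3.74 CPM (counts per 1e+06 counts of the TMM-scaled library total) in OGT-KO, 13.6 ± 2.98 in TR11B-KO and 27.1 ± 2.45 in NC (SD, n = 3 each). OGT fell in TR11B-KO, with a log2 fold change of -0.99 ± 0.21 (SE, edgeR adjusted p = 0.00393), while its value in OGT-KO against NC was -0.17 ± 0.21 (adjusted p = 0.607). TNFRSF11B had 1 count over the OGT-KO libraries, 4 over TR11B-KO and 31 over NC. CRISPR edits can disrupt a protein and leave its mRNA level as it was, and the directions below rest on the labels. The keratins KRT8, KRT18 and KRT7 reached at least 2719.8 CPM in every library, but CDH1 had no count and EPCAM at most 0.0512 CPM, and 4 of 6 genes that A549 is known to express strongly (AKR1B10, AKR1C1, AKR1C2 and ALDH3A1) reached at most 0.143 CPM. The libraries are therefore named by their labels only. The summed level of the 7 epithelial markers was 11467 to 14561 CPM in OGT-KO, 16358 to 25774 in TR11B-KO and 20006 to 22566 in NC. These markers did not move together. KRT8 and KRT18 averaged 5778 and 3241 CPM in OGT-KO and 11462 and 6162 in NC. KRT7 and CLDN4 were higher in OGT-KO, at 4360 and 1.86 CPM against 3300 and 0.169 in NC. Fibroblast, leukocyte and endothelial markers summed to at most 6.64 CPM. TR11B-KO replicate 2 stood apart, with a TMM factor of 0.784. OGT-KO replicate 2 had the highest factor, 1.159, and the other libraries lay between 0.951 and 1.065.

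In the Hippo pathway, the MST kinases with their scaffold SAV1 activate the LATS kinases, which with MOB1 phosphorylate YAP and TAZ and so hold them in the cytoplasm or mark them for degradation. YAP and TAZ that escape this enter the nucleus, bind TEAD factors and switch on genes for matrix signalling, the cytoskeleton and growth. Several of these targets feed back on the pathway, since LATS2 and AMOTL2 restrain YAP and are themselves induced by it. The pathway acts through protein phosphorylation and location, which RNA levels do not measure. In bulk RNA, fewer expressing cells and less RNA per cell cannot be told apart.

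The 10 genes did not move as a block. In OGT-KO against NC, TEAD1 and MYOF rose by 0.90 and 0.85 on the log2 scale, while CCN1 and CCN2 fell, with log2 fold changes of -0.65 and -0.88. In TR11B-KO against NC, LATS2, AMOTL2, MYOF and CCN1 fell, with log2 fold changes of -1.70, -1.48, -1.37 and -0.56. ANKRD1 had no count in OGT-KO, 9 counts in TR11B-KO and 40 in NC. Among the 9 genes that could be tested, the knockouts differed from each other most in MYOF, which was 2.23 log2 units higher in OGT-KO than in TR11B-KO.

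Of the 10 genes, 9 passed the filter on low counts and ANKRD1 did not. Of these 9, 4 were called in OGT-KO against NC, 2 higher and 2 lower, where 18.3% of all 12574 tested genes were called, 8.26% higher and 10.1% lower. In TR11B-KO against NC 4 were called, all lower, where 27.6% of all genes were called in either direction and 14.3% as lower. In OGT-KO against TR11B-KO 7 were called, 6 higher and 1 lower, where 33.2% of all genes were called and 16.7% as higher. With an offset for gene length, 5 of the 9 were called between the knockouts. A gene was called at a Benjamini-Hochberg adjusted p under 0.05 over all tested genes in edgeR's quasi-likelihood test. The median log2 fold change of the 9 genes was -0.07, -0.56 and 1.40 in these 3 comparisons, beside medians of 0.03, -0.01 and 0.06 over all tested genes. Leaving out 1 OGT-KO or NC library left 0 to 2 of the 9 genes called in OGT-KO against NC, with 0 without NC replicate 1. Without TR11B-KO replicate 2 the counts were 4, 5 and 7 in the same order of comparisons. Both knockouts were set against the same NC libraries, so those comparisons are not independent.

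**Figure D1:**
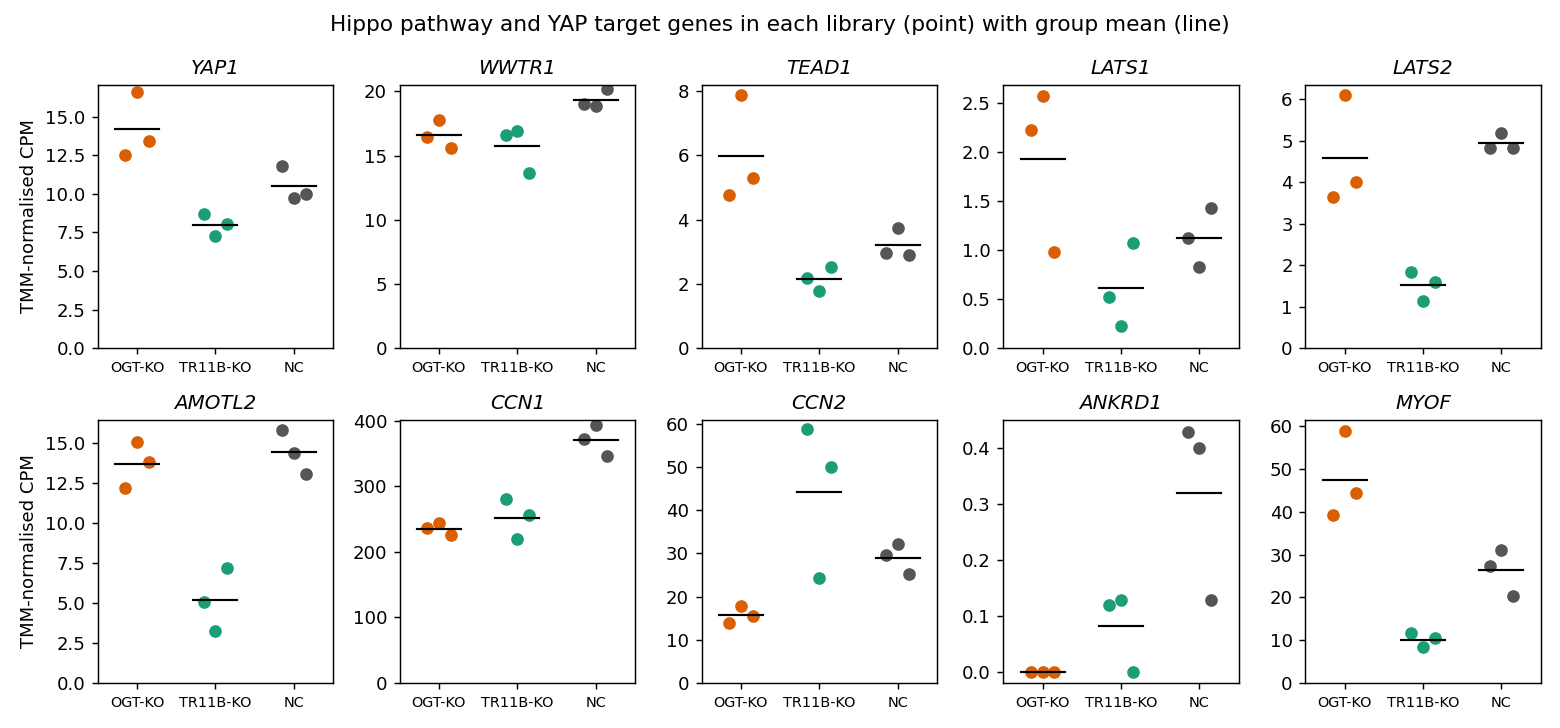
Level of each of the 10 genes in CPM (TMM-scaled, linear axis) in each library (points), with OGT-KO left, TR11B-KO middle and NC right, and the group mean as a line. MYOF lies between 39.2 and 59.0 CPM in OGT-KO and between 8.32 and 11.6 CPM in TR11B-KO, and CCN2 in TR11B-KO spreads from 24.2 to 58.8 CPM.

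YAP1 encodes the co-activator YAP (chromosome 11, 102110447 to 102233424 in GRCh38). Its level was 12.5, 16.6 and 13.4 CPM in OGT-KO, 8.71, 7.29 and 8.02 CPM in TR11B-KO, and 11.8, 9.72 and 9.96 CPM in NC. The OGT-KO libraries all lay above NC and the TR11B-KO libraries all below it, but neither difference from NC passed the test. The log2 fold change was 0.43 ± 0.21 in OGT-KO (adjusted p = 0.156) and -0.39 ± 0.21 in TR11B-KO (adjusted p = 0.176). When only the OGT-KO and NC libraries were fitted, YAP1 passed at 0.44 (adjusted p = 0.0217). It was the only 1 of 21 alternatives in which YAP1 passed in OGT-KO against NC, and the adjusted p reached 0.408. That fit called 5158 genes, where the main fit called 2303. Between the knockouts YAP1 was higher in OGT-KO by 0.82 ± 0.21 (adjusted p = 0.00814). An offset for gene length ended that call (0.50, adjusted p = 0.0629), as did leaving out OGT-KO replicate 2 (0.67, adjusted p = 0.0547), and over 21 alternatives the adjusted p reached 0.126.

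WWTR1 encodes TAZ, the paralogue of YAP, on chromosome 3 from 149517235 to 149724788. It had 16.5, 17.8 and 15.6 CPM in OGT-KO, 16.6, 16.9 and 13.7 CPM in TR11B-KO, and 19.0, 18.9 and 20.2 CPM in NC. Each library of either knockout lay below each NC library, and the knockouts overlapped each other. None of its differences passed. The log2 fold change was -0.22 ± 0.18 in OGT-KO (adjusted p = 0.435), -0.30 ± 0.18 in TR11B-KO (adjusted p = 0.245) and 0.08 ± 0.18 between the knockouts (adjusted p = 0.771, 95% interval -0.28 to 0.44). Exons of WWTR1 share 795 bases with the antisense gene WWTR1-AS1, which held 129 counts over all libraries, and the strandedness of the counting was not given.

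TEAD1 (chromosome 11, 12674421 to 12944737) encodes a factor through which YAP and TAZ reach DNA. Its libraries had 4.75, 7.88 and 5.29 CPM in OGT-KO, 2.17, 1.77 and 2.54 CPM in TR11B-KO, and 2.96, 3.74 and 2.89 CPM in NC. The 3 groups did not overlap, with OGT-KO highest and TR11B-KO lowest. TEAD1 rose in OGT-KO by 0.90 ± 0.26 (adjusted p = 0.0274), and in TR11B-KO its value was -0.56 ± 0.27 (adjusted p = 0.129). The rise in OGT-KO was lost without OGT-KO replicate 2 (adjusted p = 0.138), OGT-KO replicate 3 (0.0544), NC replicate 1 (0.107), NC replicate 2 (0.0521) or NC replicate 3 (0.0945), and with limma on log2(FPKM + 1) without a filter (0.063). The difference between the knockouts, 1.46 ± 0.27 higher in OGT-KO (adjusted p = 0.00105), passed under all 21 alternatives.

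LATS1, one of the kinases that phosphorylate YAP, was counted few times (chromosome 6, 149658153 to 149718101). It had 98, 114 and 41 counts in OGT-KO, 22, 7 and 42 counts in TR11B-KO, and 47, 35 and 56 counts in NC. These gave 1.92 ± 0.838 CPM in OGT-KO, 0.608 ± 0.431 in TR11B-KO and 1.13 ± 0.303 in NC (SD, n = 3 each), and all groups overlapped. Neither knockout differed from NC past the threshold, with log2 fold changes of 0.77 ± 0.48 in OGT-KO (adjusted p = 0.274) and -0.86 ± 0.50 in TR11B-KO (adjusted p = 0.22). LATS1 was higher in OGT-KO than in TR11B-KO by 1.64 ± 0.50 (adjusted p = 0.0216). It did not pass with the length offset (1.16, adjusted p = 0.0868), without OGT-KO replicate 1 (1.52, 0.0701) and without OGT-KO replicate 2 (1.35, 0.112), the highest adjusted p of the 21 alternatives.

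LATS2 (chromosome 13, 20973036 to 21061586) is the paralogous kinase and itself a YAP target. Its level was 3.64, 6.10 and 4.00 CPM in OGT-KO, 1.83, 1.13 and 1.59 CPM in TR11B-KO, and 4.83, 5.18 and 4.83 CPM in NC. The TR11B-KO libraries lay below all 6 others, and the OGT-KO libraries lay on both sides of NC. LATS2 fell by 1.70 ± 0.27 in TR11B-KO (adjusted p = 0.000852) and was higher in OGT-KO than in TR11B-KO by 1.58 ± 0.27 (adjusted p = 0.000758). Both calls held under all 21 alternatives. In OGT-KO against NC its log2 fold change was -0.11 ± 0.26 (adjusted p = 0.809).

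Genes near LATS2 on chromosome 13 were also low in TR11B-KO. Of 23 tested genes starting within 5 Mb of LATS2, 8 fell and 1 rose in TR11B-KO against NC, with a median log2 fold change of -0.90, where 14.3% of all genes fell. Around the other 9 genes the same median lay between -0.33 around LATS1 and 0.11 around YAP1. In OGT-KO against NC the 23 neighbours of LATS2 had a median of 0.03, with 1 rise and 1 fall, and between the knockouts 7 were higher in OGT-KO and none lower, with a median of 0.94. The part of the neighbourhood in the LATS2 value was not tested.

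Among the targets, promoters were read for the short sequence that TEAD factors bind, taken here as GGAATG or its reverse complement CATTCC. RefSeq promoters of GRCh38.p14, each the 250 bases before a transcription start, were matched for 8 of the 10 genes as 11 promoters. TEAD1 and CCN1 were not matched. CCN2 held 3 copies, ANKRD1 2, and YAP1 and a start of AMOTL2 1 each, and the other 7 promoters held none. Over 35116 promoters of the same length, 11.9% held at least 1 copy, 0.928% at least 2 and 0.0797% at least 3. A match is a run of letters and does not show binding. The promoters of CCN2 (chr6:131951373-131951622), ANKRD1 (chr10:90921088-90921337), AMOTL2 (chr3:134374448-134374697) and MYOF (chr10:93482335-93482584), all on the minus strand, are given 5′ to 3′ with the motif in capitals. The first 2 hold several copies, AMOTL2 holds 1, and MYOF shows a target promoter with no copy in this window.
CCN2: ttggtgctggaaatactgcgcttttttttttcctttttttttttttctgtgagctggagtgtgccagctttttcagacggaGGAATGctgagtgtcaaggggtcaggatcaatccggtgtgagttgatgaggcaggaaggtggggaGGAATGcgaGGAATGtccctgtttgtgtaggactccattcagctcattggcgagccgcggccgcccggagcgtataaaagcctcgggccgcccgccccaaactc
ANKRD1: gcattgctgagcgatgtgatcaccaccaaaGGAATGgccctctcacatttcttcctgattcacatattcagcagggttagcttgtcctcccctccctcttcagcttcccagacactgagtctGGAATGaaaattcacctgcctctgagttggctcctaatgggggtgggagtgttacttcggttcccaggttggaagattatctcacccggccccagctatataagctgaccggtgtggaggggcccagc
AMOTL2: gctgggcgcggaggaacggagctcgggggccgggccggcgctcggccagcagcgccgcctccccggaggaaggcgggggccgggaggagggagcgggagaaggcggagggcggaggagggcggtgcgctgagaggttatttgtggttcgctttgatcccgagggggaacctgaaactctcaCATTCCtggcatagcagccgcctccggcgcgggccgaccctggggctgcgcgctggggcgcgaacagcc
MYOF: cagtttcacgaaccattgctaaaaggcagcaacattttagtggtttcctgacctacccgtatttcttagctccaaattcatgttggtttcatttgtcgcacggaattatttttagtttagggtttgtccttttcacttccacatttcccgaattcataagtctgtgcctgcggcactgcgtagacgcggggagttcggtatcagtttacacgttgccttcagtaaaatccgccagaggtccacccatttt
The copies of CCN2 began 169, 104 and 95 bases before the start, those of ANKRD1 220 and 128 bases before it, and that of AMOTL2 69 bases before it.

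**Figure D2:**
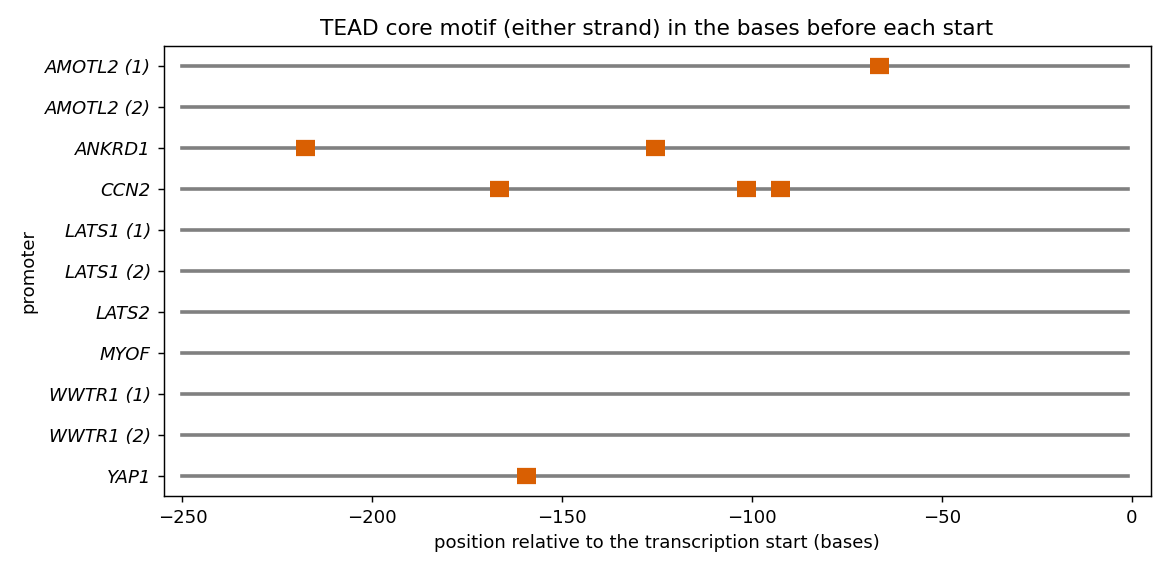
Position of each copy of the TEAD core motif, on either strand, in the 250 bases before each RefSeq start of the matched genes, on an axis of distance to the start in bases. CCN2 carries 3 copies and ANKRD1 2, while the promoters of LATS1, LATS2, WWTR1 and MYOF carry none.

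CCN1 and CCN2 encode secreted matricellular proteins, also called CYR61 and CTGF, and are the most used readouts of YAP activity. CCN1 (chromosome 1, 85580761 to 85583950) had 237, 245 and 225 CPM in OGT-KO, 281, 220 and 256 CPM in TR11B-KO, and 372, 393 and 347 CPM in NC. All 6 knockout libraries lay below all NC libraries. CCN1 fell by 0.65 ± 0.16 in OGT-KO (adjusted p = 0.0119) and fell by 0.56 ± 0.16 in TR11B-KO (adjusted p = 0.0193). Between the knockouts its difference was -0.10 ± 0.16 (adjusted p = 0.667), with a 95% interval from -0.41 to 0.21. The OGT-KO call was lost without OGT-KO replicate 1 (adjusted p = 0.0548), OGT-KO replicate 3 (0.0608), NC replicate 1 (0.0587) or NC replicate 2 (0.066), and reached at most 0.0839 over the alternatives. The TR11B-KO call was lost without TR11B-KO replicate 3 (0.0509), NC replicate 1 (0.0924) or NC replicate 2 (0.113), and with only the 2 groups fitted (0.0634).

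CCN2 (chromosome 6, 131948176 to 131951372), the gene with 3 motif copies, had 13.9, 17.8 and 15.6 CPM in OGT-KO, 58.8, 24.2 and 49.9 CPM in TR11B-KO, and 29.6, 32.1 and 25.3 CPM in NC. In OGT-KO it lay below every other library. In TR11B-KO, replicates 1 and 3 lay above NC and replicate 2, the library that stands apart, lay just below it. CCN2 fell by 0.88 ± 0.27 in OGT-KO against NC (adjusted p = 0.0353), and in TR11B-KO against NC its value was 0.61 ± 0.27 (adjusted p = 0.101). Without TR11B-KO replicate 2, CCN2 passed as higher in TR11B-KO at 0.94 (adjusted p = 2.8e-05), and it also passed with DESeq2 (0.66, adjusted p = 0.0439) and with no low-count filter (0.64, adjusted p = 0.0239). These were the only 3 of 21 alternatives in which CCN2 passed in TR11B-KO against NC. Over all 21 the value went down to 0.35 and the adjusted p up to 0.588. The fall in OGT-KO against NC was lost when any library of those groups was left out, with adjusted p between 0.0585 and 0.138, with library totals alone (0.139), and in 3 limma fits of log2 FPKM (0.155 to 0.27). Between the knockouts CCN2 was lower in OGT-KO by a log2 fold change of -1.49 ± 0.27 (adjusted p = 0.00106), which was lost under 1 of 21 alternatives, limma on log2(FPKM + 1) without a filter (-1.05, adjusted p = 0.0709). CCN1 and CCN2 thus lay on the same side of NC in OGT-KO, while in TR11B-KO only CCN1 had all libraries below NC.

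ANKRD1 (chromosome 10, 90912096 to 90921087) encodes an ankyrin-repeat protein known from heart muscle. It had 0 counts in each OGT-KO library, 5, 4 and 0 counts in TR11B-KO, and 18, 17 and 5 counts in NC. With a floor of 3 counts over the group in place of 0, ANKRD1 was 14.1-fold lower in OGT-KO than in NC. The 95% interval of the ratio ran from 0 to 0.0915, counting error only. An exact two-sided permutation over the 6 libraries gave p = 0.1, the smallest that 3 against 3 allows. In TR11B-KO against NC the ratio was 0.248 (95% interval 0.106 to 0.519, counting error only; exact two-sided permutation p = 0.2). At these counts a level in OGT-KO under the floor was not detectable.

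MYOF encodes myoferlin, a membrane repair and trafficking protein, on chromosome 10 from 93306429 to 93482334. It had 39.2, 59.0 and 44.4 CPM in OGT-KO, 11.6, 8.32 and 10.5 CPM in TR11B-KO, and 27.5, 31.1 and 20.3 CPM in NC. The 3 groups did not overlap. MYOF rose in OGT-KO by 0.85 ± 0.22 (adjusted p = 0.0171) and fell by 1.37 ± 0.23 in TR11B-KO (adjusted p = 0.000954). It was 2.23 ± 0.23 higher in OGT-KO than in TR11B-KO (adjusted p = 1.45e-05), the largest difference between the knockouts among the 9 tested genes. The TR11B-KO call and the call between the knockouts held under all 21 alternatives. The rise in OGT-KO was lost without OGT-KO replicate 2 (adjusted p = 0.0948), NC replicate 1 (0.0573) or NC replicate 3 (0.0798).

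AMOTL2 encodes an angiomotin-like protein that binds YAP and promotes its phosphorylation, on chromosome 3 from 134355345 to 134375417. It had 12.2, 15.1 and 13.8 CPM in OGT-KO, 5.05, 3.22 and 7.20 CPM in TR11B-KO, and 15.8, 14.3 and 13.1 CPM in NC. TR11B-KO lay below all other libraries, and OGT-KO overlapped NC. AMOTL2 fell by 1.48 ± 0.27 in TR11B-KO (adjusted p = 0.00151) and was higher in OGT-KO than in TR11B-KO by 1.40 ± 0.26 (adjusted p = 0.0014), with both calls kept under all 21 alternatives. Its value in OGT-KO against NC was -0.07 ± 0.26 (adjusted p = 0.877). Its exons share 187 bases with the same-strand pseudogene RPL39P5, which is not a row of the count table.

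**Figure D3:**
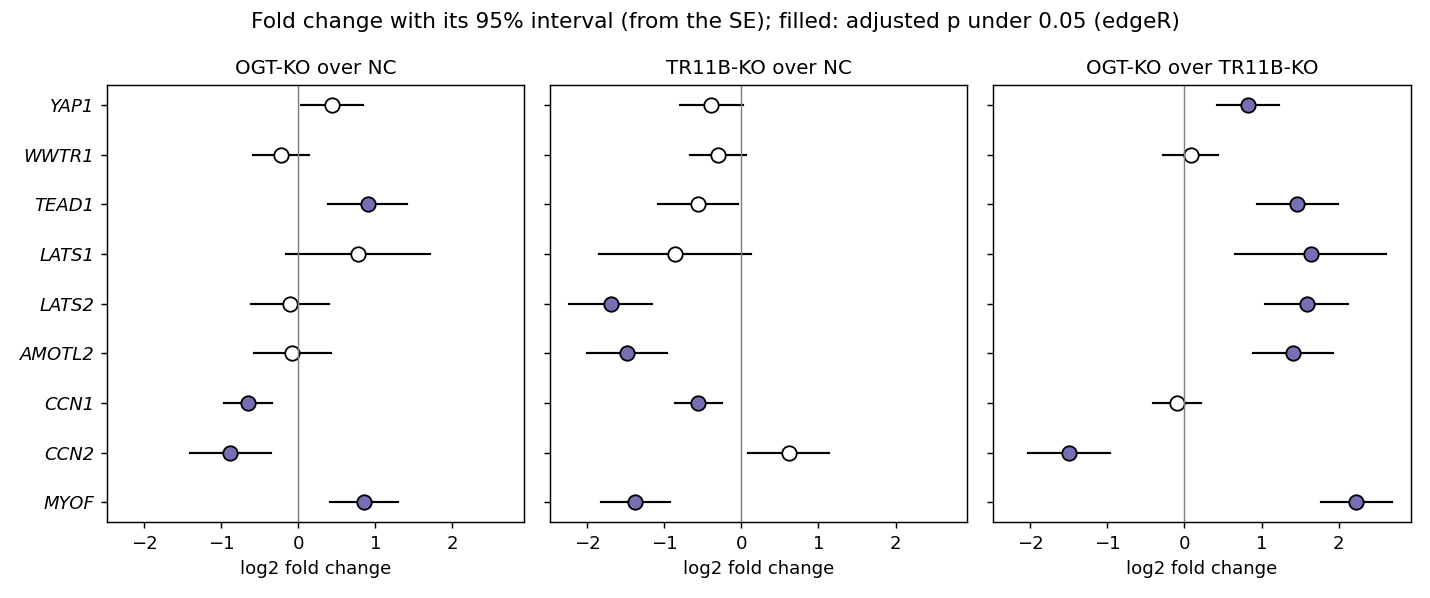
Log2 fold change of the 9 tested genes (points) in OGT-KO over NC, TR11B-KO over NC and OGT-KO over TR11B-KO, filled where the adjusted p in edgeR was under 0.05. Bars are approximate 95% intervals, 1.96 SE to either side. They are narrower than the F test implies, so a bar can exclude 0 where the test did not pass. CCN1 is filled on the negative side in both comparisons with NC, MYOF is filled on opposite sides of 0 in them, and 7 genes are filled between the knockouts.

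By separation of libraries, 6 of the 9 tested genes did not overlap between OGT-KO and NC, 3 higher and 3 lower, where 49.8% of all tested genes did not overlap, 24.2% higher and 25.6% lower. Between TR11B-KO and NC 7 of 9 did not overlap, all lower, where 40.9% of all genes did not overlap and 21.9% did so as lower. Between OGT-KO and TR11B-KO it was 6 of 9, 5 higher and 1 lower, where 44.9% of all genes did not overlap, 24.6% higher and 20.3% lower. Only CCN1 and WWTR1 among the 9 lay below NC in every library of both knockouts. TEAD1, YAP1 and MYOF lay above NC in every OGT-KO library and below it in every TR11B-KO library, and of these MYOF passed the test in both.

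Within both knockout groups, replicate 2 stood at an end of the range for most of the 9 tested genes. These 2 libraries also had the extreme TMM factors, 1.159 in OGT-KO and 0.784 in TR11B-KO. OGT-KO replicate 2 was the highest of its group for 9 of the 9 tested genes, where it was the highest for 40.8% of all tested genes. TR11B-KO replicate 2 was the lowest of its group for 8 of 9, where it was the lowest for 42.9% of all genes, and WWTR1 was the exception. The highest library in TR11B-KO was split, with replicate 1 highest for 5 genes, replicate 3 for 3 and replicate 2 for 1. NC showed no such pattern, since none of its libraries was highest or lowest for more than 5 of the 9 genes.

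Fold changes in TR11B-KO moved with gene length over all genes. With tested genes split by length into 5 equal groups, the median log2 fold change against NC was 0.43 in the shortest group and -0.31 in the longest. CCN1 (2278 bases) and CCN2 (2338 bases) fall in length group 2, with a median of 0.11. YAP1, WWTR1, LATS2 and AMOTL2 (5193 to 6210 bases) fall in length group 4, with a median of -0.22, and LATS1, TEAD1 and MYOF (8484 to 9417 bases) in the longest. With an offset for length fitted in each library, the falls in TR11B-KO were -1.44 for LATS2 (adjusted p = 0.00151), -1.25 for AMOTL2 (0.0037), -1.07 for MYOF (0.00223) and -0.66 for CCN1 (0.0119). For YAP1, TEAD1 and WWTR1 the values against NC became -0.13, -0.25 and -0.05, against -0.39, -0.56 and -0.30 without it, and none of them passed in either fit. In OGT-KO against NC the offset left TEAD1 at 0.71 (adjusted p = 0.0434), MYOF at 0.70 (0.0218), CCN1 at -0.61 (0.0195) and CCN2 at -0.84 (0.039).

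Levels of different genes were compared on the authors' FPKM scale, which divides by gene length and library total. CCN1 was highest in every group, at 113 ± 10.4 FPKM in OGT-KO, 102 ± 24.3 in TR11B-KO and 164 ± 9.82 in NC, and CCN2 was second at 7.38 ± 1.28, 17.9 ± 8.79 and 12.5 ± 1.47 FPKM in the same groups (SD, n = 3 each). In OGT-KO, MYOF followed at 6.17 ± 1.67 FPKM, overlapping CCN2, and WWTR1, AMOTL2 and YAP1 lay between 2.14 and 3.57 FPKM with each neighbour overlapping the next. In TR11B-KO, WWTR1 came next at 2.47 ± 0.350 FPKM, and YAP1, MYOF and AMOTL2 overlapped between 0.487 and 1.41 FPKM. In NC, WWTR1, MYOF and AMOTL2 lay between 2.42 and 3.69 FPKM, above YAP1 at 1.71 ± 0.188. There MYOF overlapped both WWTR1 and AMOTL2, and WWTR1 lay above AMOTL2 in every library. LATS2 and then TEAD1 came next in each group, overlapping in both knockouts but not in NC. LATS1 and ANKRD1 were last, at 0.238 ± 0.111 FPKM for LATS1 in OGT-KO, 0.0643 ± 0.0476 in TR11B-KO and 0.127 ± 0.0346 in NC, with ANKRD1 listed at 0 in every OGT-KO library.

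Around these genes, 5 lists of other pathway genes were counted. Over all tested genes, 8.26% rose and 10.1% fell in OGT-KO against NC, 13.2% rose and 14.3% fell in TR11B-KO against NC, and 16.7% were higher and 16.5% lower in OGT-KO than in TR11B-KO. The other TEAD and VGLL factors had 4 tested genes of 6 listed. Against NC, 2 of the 4 fell and none rose in OGT-KO, in TR11B-KO against NC 1 fell, and between the knockouts 2 were lower in OGT-KO. The list's median log2 fold change was -0.63, 0.07 and -0.69 in these comparisons. TEAD2 averaged 26.3 ± 3.42 CPM in OGT-KO, 54.5 ± 2.16 in TR11B-KO and 62.9 ± 2.04 in NC, and fell by 1.26 ± 0.17 in OGT-KO (adjusted p = 0.000236), opposite to TEAD1. VGLL4, which competes with YAP for TEAD, averaged 10.9 ± 1.27 CPM in OGT-KO, 12.6 ± 1.05 in TR11B-KO and 19.3 ± 0.506 in NC. It fell by 0.82 ± 0.19 in OGT-KO (adjusted p = 0.00973) and fell by 0.61 ± 0.19 in TR11B-KO (adjusted p = 0.0282). The first VGLL4 call was lost without OGT-KO replicate 3 (adjusted p = 0.0605), and the TR11B-KO call without OGT-KO replicate 2 or any NC replicate (0.051 to 0.114) and with the length offset (-0.36, adjusted p = 0.172), with a highest value of 0.274. TEAD4 averaged 86.5 ± 8.37 CPM in OGT-KO, 151 ± 49.1 in TR11B-KO and 118 ± 4.45 in NC, and was lower in OGT-KO than in TR11B-KO by a log2 fold change of -0.80 ± 0.21 (adjusted p = 0.00928), lost without OGT-KO replicate 2 (0.0528) and with the length offset (0.0546). TEAD3 had 12.4 ± 0.895 CPM in OGT-KO, 18.5 ± 6.34 in TR11B-KO and 14.3 ± 0.840 in NC.

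Of the other Hippo kinases and scaffolds, 19 of 21 listed were tested. Of these, 1 rose and 2 fell in OGT-KO against NC, in TR11B-KO against NC 1 rose and 3 fell, and between the knockouts 2 were higher and 2 lower in OGT-KO. The medians were -0.09, 0.01 and 0.22. STK4, the MST1 kinase at the head of the cascade, averaged 8.03 ± 0.838 CPM in OGT-KO, 2.56 ± 0.885 in TR11B-KO and 5.40 ± 0.281 in NC. It fell by 1.06 ± 0.26 in TR11B-KO (adjusted p = 0.0085) and was 1.64 ± 0.26 higher in OGT-KO than in TR11B-KO (adjusted p = 0.000409). MOB1A, a co-activator of LATS, moved the other way, with 7.79 ± 0.477 CPM in OGT-KO, 26.8 ± 9.74 in TR11B-KO and 10.3 ± 2.03 in NC. It rose in TR11B-KO by 1.39 ± 0.27 (adjusted p = 0.00231), lost with limma on log2(FPKM + 1) without a filter (0.90, adjusted p = 0.0717), and was lower in OGT-KO than in TR11B-KO by a log2 fold change of -1.78 ± 0.27 (adjusted p = 0.000296). WWC1, the KIBRA scaffold, averaged 41.3 ± 4.20 CPM in OGT-KO, 35.5 ± 11.8 in TR11B-KO and 79.4 ± 17.2 in NC. It fell by 1.16 ± 0.25 in TR11B-KO (adjusted p = 0.00399) and fell by 0.94 ± 0.25 in OGT-KO (adjusted p = 0.0171). The OGT-KO call of WWC1 was lost without any OGT-KO replicate, NC replicate 1 or NC replicate 2 (0.0511 to 0.0772). It was also lost with library totals alone (0.0781) and in 3 limma fits of log2 FPKM (0.0863 to 0.148). In OGT-KO the other calls of this list, a rise of MAP4K5 and a fall of WWC3, were each lost on leaving out single libraries: MAP4K5 (1.25 ± 0.40, adjusted p = 0.0412) without any OGT-KO or NC replicate (0.0532 to 0.166), and WWC3 (-1.64 ± 0.47, adjusted p = 0.0263) without OGT-KO replicate 1 or 2 or any NC replicate (0.0501 to 0.107). The WWC3 call was also lost in 3 limma fits of log2 FPKM (0.0612 to 0.156). That of MAP4K5 was also lost with the length offset (0.0527) and with limma on log2(FPKM + 1) without a filter (0.0519). STK3, SAV1 and MOB1B stood between 0.607 and 3.36 CPM on average in every group. NF2, which encodes merlin, had 120 ± 8.41 CPM in OGT-KO, 129 ± 20.0 in TR11B-KO and 127 ± 13.4 in NC.

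All 21 junction, polarity and other upstream regulators listed were tested. Among them 4 rose and 5 fell in OGT-KO against NC, in TR11B-KO against NC 1 rose and 3 fell, and between the knockouts 5 were higher and 4 lower in OGT-KO. The medians were 0.18, -0.13 and 0.28, and with the length offset -0.01, 0.11 and -0.11. The LIM proteins WTIP and AJUBA, which hold LATS in an inactive state at junctions, fell in OGT-KO, with log2 fold changes of -1.59 ± 0.20 (adjusted p = 0.000194) and -1.06 ± 0.18 (adjusted p = 0.00124). STRN3, part of the phosphatase complex that restrains the MST kinases, rose in OGT-KO by 1.72 ± 0.39 (adjusted p = 0.00798) at a low level, with 2.21 ± 0.275 CPM in OGT-KO and 0.671 ± 0.206 in NC. RASSF1, which binds the MST kinases, averaged 58.4 ± 5.91 CPM in OGT-KO, 151 ± 10.6 in TR11B-KO and 93.9 ± 11.4 in NC. It was lower in OGT-KO than in TR11B-KO by a log2 fold change of -1.37 ± 0.17 (adjusted p = 5.32e-05). Against NC, RASSF1 fell by 0.69 ± 0.16 in OGT-KO (adjusted p = 0.0109) and rose in TR11B-KO by 0.68 ± 0.16 (adjusted p = 0.00787), calls lost without OGT-KO replicate 1 or 2 or NC replicate 1 or 3 (0.0506 to 0.0708) and without NC replicate 2 (0.0541). The giant cadherins FAT1 and FAT4 were higher in OGT-KO than in TR11B-KO by 1.52 ± 0.24 (adjusted p = 0.00042) and 2.02 ± 0.43 (adjusted p = 0.00293). AMOT and AMOTL1, the relatives of AMOTL2, averaged between 0.751 and 1.92 CPM in every group.

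A further list held 16 other genes used in scores of YAP/TAZ activity, of which 15 were tested. None rose and 3 fell in OGT-KO against NC, with a median log2 fold change of -0.09. In TR11B-KO against NC none rose and 5 fell, with a median of -0.50, and between the knockouts 5 were higher and 2 lower in OGT-KO, with a median of 0.13. TGFB2, a growth factor, averaged 2.90 ± 0.349 CPM in OGT-KO, 0.865 ± 0.0909 in TR11B-KO and 2.91 ± 0.256 in NC. It fell by 1.75 ± 0.26 in TR11B-KO (adjusted p = 0.000546) and was higher in OGT-KO than in TR11B-KO by 1.75 ± 0.26 (adjusted p = 0.000282). ARHGEF17 fell by 1.28 ± 0.21 in OGT-KO (adjusted p = 0.000993) and fell by 0.84 ± 0.21 in TR11B-KO (adjusted p = 0.00862), and the TR11B-KO call was lost without NC replicate 2 (0.0517) and with the length offset (-0.53, adjusted p = 0.0868). IGFBP3, a secreted binding protein of insulin-like growth factors, had 0 counts in OGT-KO, 0 in TR11B-KO and 56 in NC. With a floor of 3 counts over the group in place of 0, it was 19.7-fold lower in OGT-KO and 16.9-fold lower in TR11B-KO. The 95% interval of its ratio to NC ran up to 0.0645 in OGT-KO and 0.075 in TR11B-KO, counting error only. An exact two-sided permutation gave p = 0.1 in each comparison, the smallest possible. IGFBP3 passed the filter through NC alone, so that its fall was fixed by the filter, and without it 2 genes of the list fell in OGT-KO and 4 in TR11B-KO. The kinase NUAK2 was higher in OGT-KO than in TR11B-KO by 0.84 ± 0.17 (adjusted p = 0.00246). With the length offset, the counts of this list in TR11B-KO against NC were 1 higher and 2 lower, and without TR11B-KO replicate 2 they were 1 higher and 6 lower. The medians against NC are the same with IGFBP3 set at its floor of 3 counts.

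Of 18 further published YAP/TAZ and TEAD targets, 15 were tested. There 1 rose and 3 fell in OGT-KO against NC, with a median of -0.07. In TR11B-KO against NC 1 rose and 7 fell, with a median of -0.64, and between the knockouts 6 were higher and 3 lower in OGT-KO, with a median of 0.65. TAGLN, an actin-binding protein, averaged 13.3 ± 1.82 CPM in OGT-KO, 16.5 ± 1.61 in TR11B-KO and 61.5 ± 3.68 in NC, and fell by 2.20 ± 0.19 in OGT-KO (adjusted p = 7.45e-06) and fell by 1.89 ± 0.18 in TR11B-KO (adjusted p = 3.4e-05). THBS1, which encodes the matrix protein thrombospondin, averaged 51.9 ± 2.32 CPM in OGT-KO, 16.7 ± 1.70 in TR11B-KO and 59.6 ± 0.908 in NC, and fell by 1.83 ± 0.17 in TR11B-KO (adjusted p = 2.41e-05). EDN1, which encodes the peptide endothelin, fell by 2.02 ± 0.43 in OGT-KO (adjusted p = 0.00618) at a low level, with 0.448 ± 0.148 CPM in OGT-KO and 1.82 ± 0.646 in NC. In TR11B-KO, at 0.774 ± 0.310 CPM, EDN1 fell by 1.22 ± 0.42 (adjusted p = 0.0435), though its libraries overlapped those of NC. Between the knockouts EDN1 was not called (-0.80, adjusted p = 0.18). LPP and ARHGAP29 were higher in OGT-KO than in TR11B-KO by 1.75 ± 0.28 (adjusted p = 0.000476) and 1.36 ± 0.22 (adjusted p = 0.000453). Both fall in the longest length group (26837 and 9191 bases), whose median between the knockouts was 0.50, and both calls held under all 21 alternatives. The call that rose in TR11B-KO was TNFRSF12A, at 0.80 ± 0.22 (adjusted p = 0.0148), lost without NC replicate 1 (0.0662) or 2 (0.068) and with the length offset (0.31, adjusted p = 0.338). With the length offset this list had none higher and 5 lower in TR11B-KO, and without TR11B-KO replicate 2 it had 2 higher and 7 lower. Both target lists overlap in CRIM1.

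**Figure D4:**
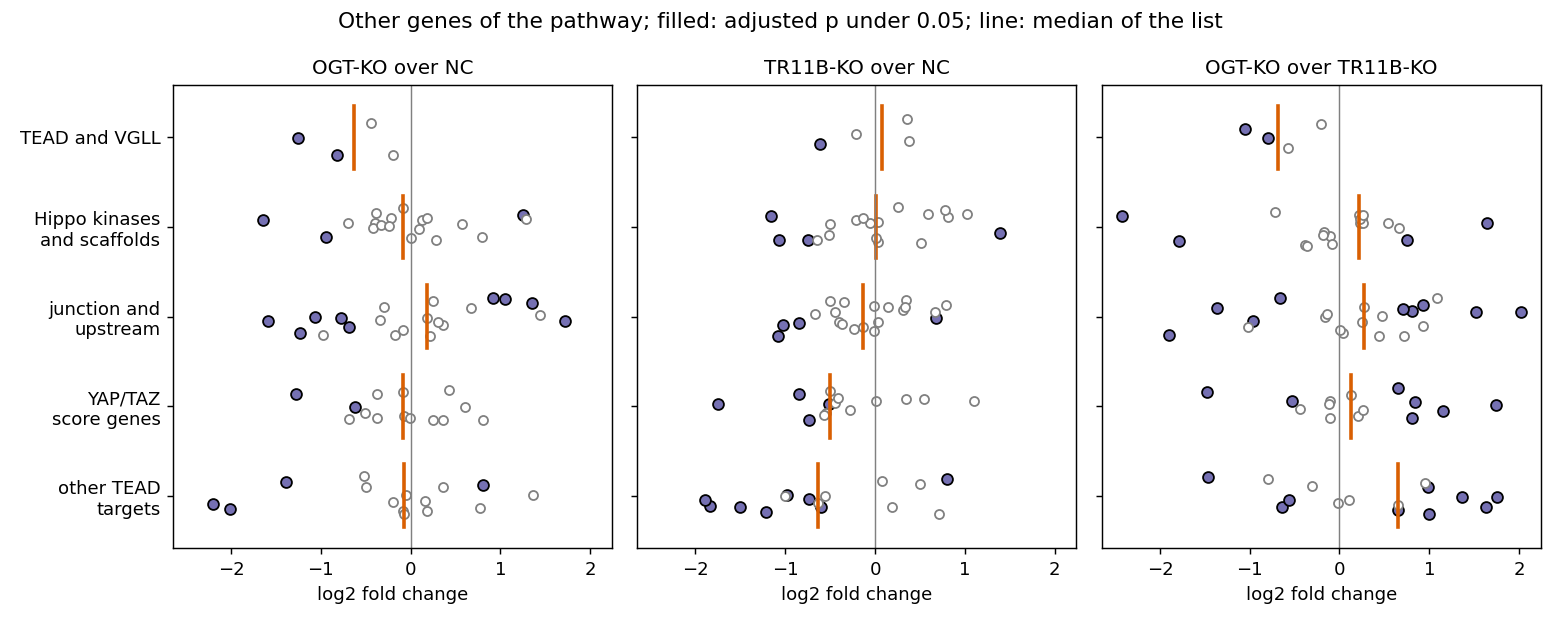
Log2 fold change of each tested gene (points) of the 5 lists of other pathway genes in the 3 comparisons, filled where the adjusted p in edgeR was under 0.05, with the median of the list as a line. IGFBP3 is counted but not plotted. No offset for gene length is applied. In TR11B-KO over NC the medians of both target lists lie below 0, at -0.50 and -0.64, that of the junction list lies at -0.13, and those of the kinase and TEAD lists lie at 0.01 and 0.07.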

How the data were processed

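RNA of 9 samples was sequenced, with group and replicate read from each title. Per the submitters' processing notes, GRCh38 was the build, and fastp, HISAT, HTSeq, DESeq2 and R 3.2.0 were used, with roles and settings not given in the sources used here. Deposited by the authors were a table of whole-number read counts per gene without normalization, and a table of FPKM values, scaled by the authors to gene length and library total. Gene length was recovered from the ratio of the 2 tables. Titles speak of biological replicates, but separate cultures or clones are named nowhere, so the p-values reflect sample-to-sample spread that may be technical.

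With edgeR 4.0.16 (R 4.3.3), filterByExpr left 12574 of 19257 genes, TMM gave the scaling, and a robust quasi-likelihood F test was run on all 9 libraries with 1 mean per group. Genes were called under an adjusted p of 0.05 (Benjamini-Hochberg, all tested genes). The SE is |log2 fold change| over the root of F. The 95% intervals of log2 fold changes are approximate, at 1.96 SE to either side. This normal multiplier makes them narrower than the F test implies, so they can exclude 0 at an unadjusted p above 0.05. Genes below the filter were compared by summed counts with exact 95% intervals, which cover counting error only, and an exact two-sided permutation test. Alternatives were DESeq2 1.42.0, RLE factors, library totals, other filters, fits of the 2 groups compared, a replicate block, limma 3.58.1 on log2(FPKM + pseudocount), an offset for gene length (loess, span 0.3), and leaving out each library. The fit was tested on simulated data.

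The 10 genes and the lists were chosen with earlier results of these data known, and the lists were compiled from general knowledge. Named beyond the 10 genes were the targeted genes, the TEAD, MST, SAV1, MOB1, NF2 and AMOT genes, and from each other list up to 6 called genes per comparison with the smallest adjusted p. For IGFBP3, which the rule names, counts are given in place of a fitted fold. A few genes that the rule names are not reported here. Exons that overlap other genes were taken from GENCODE, and positions and promoters from RefSeq GRCh38.p14, whose gene table matched 12433 of the 12574 tested genes. Opposite-strand exons overlap those of YAP1, WWTR1, LATS1 and CCN2, and reads of such pairs cannot be told apart without strand.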

Additional observations from a re-analysis of the deposited data

How the results depend on the processing

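In OGT-KO against NC, none of the 4 calls among the 9 tested genes held under all 21 alternatives, while 3 of 4 did in TR11B-KO against NC (LATS2, AMOTL2 and MYOF) and 4 of 7 between the knockouts (TEAD1, LATS2, AMOTL2 and MYOF). The number of the 9 genes called in OGT-KO against NC was 2 with limma on log2(FPKM + 1) without a filter, and 0 to 4 when a library was left out, with 0 without NC replicate 1. In TR11B-KO against NC it was 3 to 5 on leaving out a library, and between the knockouts 5 to 7. Over all genes, 2303 were called in OGT-KO against NC, 3469 in TR11B-KO against NC and 4174 between the knockouts. Fitting only the groups compared gave 5158 in OGT-KO against NC and 2236 in TR11B-KO against NC. Leaving out a library gave 1088 (without NC replicate 1) to 4512 (without TR11B-KO replicate 2) in OGT-KO against NC, 1825 to 4473 in TR11B-KO against NC, and 2398 to 5291 between the knockouts.

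The replicate numbers did not pair the samples: correlations of deviations in the 9 same-number pairs ran from -0.199 to 0.069. With the replicate block, 1609 genes were called in OGT-KO against NC, 2612 in TR11B-KO against NC and 3403 between the knockouts, and 2 of the 9 genes in OGT-KO against NC. The block ended the calls of TEAD1 (adjusted p = 0.0544) and CCN2 (0.0651) in OGT-KO against NC and of CCN1 (0.0536) in TR11B-KO against NC. The block with the length offset called 0 of the 9 genes in OGT-KO against NC, and 1991 of all genes in TR11B-KO against NC.

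Values near 0 changed sign, none of them called. For AMOTL2 in OGT-KO against NC they were 0.0444 with library totals, 0.0293 with limma on log2(FPKM + 1) with or without a filter, 0.0369 with a pseudocount of 0.1, and -0.14 to 0.0031 on leaving out a library (0.0031 without OGT-KO replicate 1). For LATS2 in OGT-KO against NC they were 0.0179 with library totals and -0.36 to 0.0309 on leaving out a library (0.0309 without OGT-KO replicate 1). For CCN1 between the knockouts they were 0.15 with library totals, 0.17 in each of the 3 limma fits, 0.047 with the length offset and 0.0462 with the offset and the block. For WWTR1 between the knockouts they were -0.21 with the length offset, -0.21 with the offset and the block, and -0.011 (without TR11B-KO replicate 3) to 0.12 on leaving out a library. The cause was not tested. Library totals alone moved the median of all genes to 0.15 in OGT-KO against NC, -0.15 in TR11B-KO against NC and 0.31 between the knockouts, and moved the split of calls: 1369 higher and 890 lower in OGT-KO against NC (1039 and 1264 with TMM), 1180 and 2030 in TR11B-KO against NC (1666 and 1803 with TMM), and 3084 and 1268 between the knockouts (2104 and 2070 with TMM). LATS1, at 7 to 114 counts a library, and ANKRD1, at 0 to 18, are limited by depth.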

Other observations

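Likeness was measured as the mean absolute difference of log2 CPM, each gene centred on its own mean over the 9 libraries, and only genes averaging 2 or more in log2 CPM were considered. The gene most like YAP1 was KIFBP (0.0763), followed by RSPRY1 (0.0859) and ATP2C1 (0.0946). TEAD1 was most like NCOR1 (0.103), KMT2A (0.115) and BAZ1B (0.125). LATS2 was most like TRIO (0.109), AMOTL2 like SMCR8 (0.0845), CCN1 like YARS1 (0.031) and CCN2 like DERL2 (0.0922). MYOF was most like RAI14 (0.142), SMG1 (0.15) and OSMR (0.17), and WWTR1 was most like EMC3 (0.0811). LATS1, with the fewest counts of the 9 tested genes, had no gene nearer than PPP1R13B (0.354). None of the genes named as most alike belongs to the 10 genes. However, TEAD1, LATS2 and LATS1 averaged 1.94, 1.90 and 0.36 in log2 CPM and ANKRD1 was not tested, so these could not be named. With 7020 or 7021 candidates for each gene, the absence of the others says little about the 10 genes.

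In OGT-KO against NC, the median log2 fold change of the tested genes within 5 Mb lay above 0 around each of the 10 genes, from 0.03 around LATS2 to 0.44 around YAP1, beside 0.03 over all tested genes. The 28 tested neighbours of CCN1 had a median of 0.37, with 1 rise and no fall, and the 22 neighbours of CCN2 had a median of 0.34, with 3 rises and 1 fall, where 8.26% of all tested genes rose and 10.1% fell. The 57 neighbours of MYOF had a median of 0.29 in OGT-KO against NC, with 5 rises and 1 fall, and of -0.01 in TR11B-KO against NC, with 2 rises and 5 falls.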
